A study of Mus musculus with 12 samples.

Results

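A set of 10 transcription factor genes with roles in IL-9–producing T helper cells (Th9 cells) was followed in RNA-seq of mouse Th9 cultures. The genes are *Irf4*, *Irf8*, *Batf*, *Batf3*, *Bhlhe40*, *Etv5*, *Spi1*, *Gata3*, *Maf*, and *Prdm1*, and they were found by symbol, as 10 of the 32051 genes with values. Naive CD4+ T cells from the spleens of C57BL/6J mice (6 to 8 weeks of age) were activated with plate-bound anti-CD3 and 1 μg/mL anti-CD28 and polarized with 10 ng/mL IL-4, 1 ng/mL TGF-β, and antibodies against IL-12 and IFN-γ, and RNA was taken on day 4. The methods of the study also name OT-II transgenic mice as a source of cells for such cultures. The culture was the same in all 4 groups, and each has 3 libraries. DMSO is the vehicle, and EpA has 10 μM endomelipeptide A, a fungal cyclic peptide. Fatostatin, an SREBP inhibitor that the study used against SREBP1, is at 5 μM, in a group whose treatment label also names DMSO. The last group has both compounds at these doses. The study calls the 12 samples independent without saying whether animals, cultures, or only libraries were separate, so the p-values measure the spread between these libraries, part of which may be technical. The values are bulk averages over a culture, in which fewer cells of a type and less RNA per cell cannot be told apart.

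Th9 differentiation joins IL-4 signaling through STAT6 with TGF-β signaling, on top of T cell receptor and IL-2 signals. IRF4 and BATF, induced by the T cell receptor, bind DNA together at composite elements, PU.1 (encoded by *Spi1*) and the ETS factor ETV5 act at the *Il9* locus, and GATA3 is the shared lineage factor of Th2 cells. c-Maf, Blimp-1 (encoded by *Prdm1*), and BHLHE40 are best known in T cells for the control of cytokine genes such as *Il10*, which c-Maf and Blimp-1 promote and BHLHE40 represses.

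The values are FPKM, read numbers scaled by gene length and library size, so levels can be compared between genes. The libraries held 36019739 to 43656682 reads on the listed genes, as recovered from the FPKM steps, and the replicates of a group correlated across genes with r of 0.985 to 0.988 on the log2 scale. The 8 CD4+ T cell markers were all present, with a summed level of 792 to 798 FPKM in DMSO, 752 to 754 in EpA, 779 to 794 in fatostatin, and 741 to 745 in both. The sum was lower in the 6 libraries with EpA than in the 6 without it, but its genes went both ways: against DMSO, the EpA means were lower for 6, such as *Cd28* (37.3 to 25.7 FPKM), *Cd3e* (53.3 to 42.3), and *Cd3g* (123 to 101), and higher for *Cd4* (78.2 to 86.8) and *Cd2* (194 to 230.4). With fatostatin, *Cd28* (to 30.04 FPKM) and *Lck* (154 to 138) fell, and *Cd3g* (to 132) and *Cd4* (to 84.3) rose. Their part in the differences given here was not tested. Markers of other cells were low: 14 myeloid markers summed to 2.27 to 4.57 FPKM, 7 dendritic cell markers to 0.591 to 0.737, and 7 mast cell and granulocyte markers to 0.948 to 2.09. The last sum was 1.07 to 1.11 FPKM in DMSO, 1.43 to 2.09 in EpA, 1.23 to 1.40 in fatostatin, and 0.948 to 1.80 in both, with 6 of its 7 genes at a higher mean in EpA than in DMSO and *Tpsab1* at 0 in all libraries. Of these 7, *Mcpt8* rose with EpA, from 0.355 to 0.771 FPKM. Of the 7 dendritic cell markers, 3 had a higher mean with EpA than with DMSO and 3 were at 0 in all libraries. The 1 with a lower mean, *Xcr1*, fell from 0.195 to 0.0847. The 8 B cell markers summed to 5.45 to 8.88 FPKM, of which *Cd79b* alone held 4.66 to 7.43, and *Cd79a* fell with EpA from 0.791 to 0.489. The 5 markers of NK and CD8+ T cells summed to 8.80 to 9.81 FPKM in DMSO, 7.93 to 8.63 in EpA, 8.63 to 10.2 in fatostatin, and 7.04 to 8.67 in both, with *Cd8b1* the most abundant and *Ncr1*, *Klrb1c*, and *Klra8* below 0.1 in all libraries. The sum was lower in all EpA libraries than in DMSO, with 2 of its 5 genes at a lower mean and 3 at a higher one. *Cd8a*, which encodes the CD8 α chain, had means of 1.81, 0.802, 1.52, and 0.491 FPKM in DMSO, EpA, fatostatin, and both, and fell with EpA (log2 difference -1.08, limma adjusted p = 2.85e-05), whereas *Cd8b1*, of the β chain, had 7.60, 7.47, 7.64, and 7.25.

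In the vehicle cultures, the factors spanned from the most abundant transcripts to the limit of detection. *Irf4* led with 156 ± 1.51 FPKM (SD, n = 3), a level that 1.77% of the 13733 tested genes exceeded. *Batf* followed with 75.5 ± 1.51 FPKM, *Gata3* with 50.4 ± 2.40, *Batf3* with 39.5 ± 1.24, and *Bhlhe40* with 27.3 ± 0.436 (SD, n = 3 each). *Maf* and *Irf8* were intermediate, with 16.7 ± 0.152 and 11.7 ± 0.496 FPKM (SD, n = 3). *Prdm1* (1.06 ± 0.0911 FPKM, SD, n = 3) and *Etv5* (0.563 ± 0.0825) lay below most tested genes, 74.2% and 80.8% of which were higher. *Spi1*, the factor named PU.1 for its purine-rich site, had 0 to 4 reads per DMSO library.

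**Figure D1:**
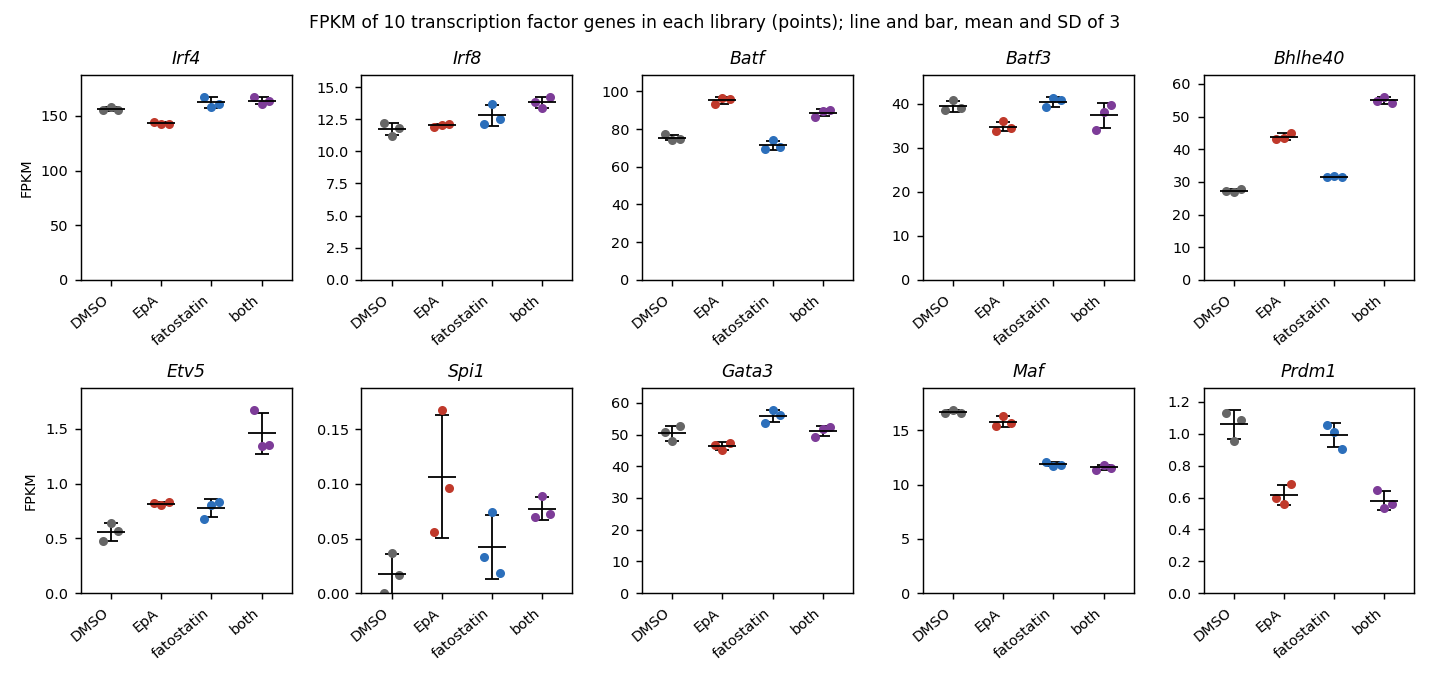
FPKM (y axes, from 0, on a separate scale for each gene) of the 10 factors in the 12 libraries; points are libraries, black lines and bars the mean and SD of 3. *Bhlhe40* and *Etv5* are lowest in DMSO and highest with both compounds, *Prdm1* is lower in the 2 groups with EpA, and *Maf* is lower in the 2 groups with fatostatin.

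EpA moved most of these factors, in both directions. Against DMSO, *Batf*, *Bhlhe40*, and *Etv5* rose, and *Irf4*, *Batf3*, *Gata3*, and *Prdm1* fell. That is 7 of the 9 tested members past an adjusted p of 0.05 (limma on log2(FPKM + 0.1), adjusted over all tested genes), whereas 27.4% of all tested genes passed (14.3% higher and 13.1% lower). A change of at least 1.5-fold was seen for 2 of them, *Bhlhe40* and *Prdm1*, against 3.38% of all tested genes. The other called changes were smaller. A larger absolute log2 difference was found in 9.82% of tested genes for *Etv5*, 16.6% for *Batf*, 35.8% for *Batf3*, 49.8% for *Irf4*, and 51.7% for *Gata3*. The EpA and DMSO values did not overlap for 8 of the 9 tested members, as for 42.4% of all tested genes, so separation of the libraries on its own was common in this comparison.

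The same comparison in the presence of fatostatin (both compounds against fatostatin) uses the other 6 libraries. There *Batf*, *Bhlhe40*, and *Etv5* rose and *Gata3* and *Prdm1* fell, 5 of 9 members against 29.5% of all tested genes (16.2% higher, 13.3% lower). *Bhlhe40*, *Etv5*, and *Prdm1* changed by at least 1.5-fold, as did 3.75% of all tested genes. The values of 5 members did not overlap, against 41.4% of all tested genes.

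Fatostatin was likewise compared without and with EpA. Against DMSO, *Bhlhe40* and *Gata3* rose and *Maf* fell, 3 of 9 members against 14.0% of all tested genes (7.69% higher, 6.31% lower). None of the 3 reached 1.5-fold, which 1.86% of all tested genes did, and the values of 6 members did not overlap, against 31.3% of all tested genes. When fatostatin was added to EpA, *Irf4*, *Gata3*, *Bhlhe40*, *Etv5*, and *Irf8* rose and *Batf* and *Maf* fell against EpA alone, 7 of 9 members against 16.0% of all tested genes (9.22% higher, 6.79% lower). Of these, *Etv5* alone reached 1.5-fold, as did 1.99% of all tested genes. The values of 7 members did not overlap, against 33.3% of all tested genes. The split of all called genes depended on the scaling. As deposited, 1266 were higher and 933 lower for both compounds against EpA, 2221 and 1830 against fatostatin, and 2706 and 2171 against DMSO, and after scaling by the median ratio 1090 and 1252, 1982 and 2087, and 2385 and 2497.

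**Figure D2:**
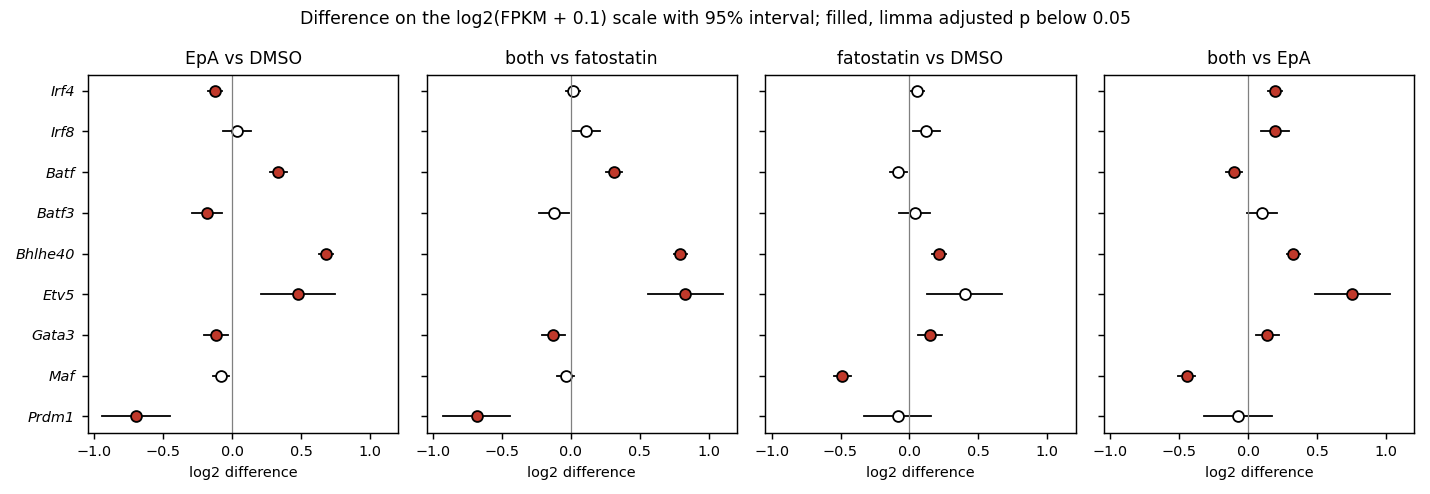
Difference between groups (x axes, log2(FPKM + 0.1) scale) for the 9 tested factors in 4 comparisons, with 95% intervals of limma; filled points have an adjusted p below 0.05. The first pair of panels shows EpA added without and with fatostatin, the second pair fatostatin added without and with EpA.

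IRF4 is a T cell receptor–induced factor required for Th9 cells and the most abundant of the 10. *Irf4* (ENSMUSG00000021356, chromosome 13 of GRCm38, 30749226 to 30766976, plus strand) had 155, 158, and 155 FPKM in the 3 DMSO libraries, 145, 143, and 143 in EpA, 168, 158, and 161 in fatostatin, and 168, 161, and 163 in both. The EpA libraries were the lowest of the 12 and overlapped with no other group, while those of fatostatin and both compounds covered much the same range. *Irf4* was thus 8.18% lower with EpA than with DMSO, a log2 difference of -0.12 (SE 0.0224, limma adjusted p = 0.00185). With fatostatin present, adding EpA gave a log2 difference of 0.02 (95% CI -0.03 to 0.07, limma adjusted p = 0.656). The difference between these EpA effects was 0.14 (95% CI 0.07 to 0.21), with a limma p of 0.00108 before and 0.297 after adjustment over all genes. Adding fatostatin to EpA raised *Irf4* by 0.19 on the log2 scale (limma adjusted p = 0.000138), and both compounds against DMSO gave 0.07 (limma adjusted p = 0.0292). Fatostatin against DMSO gave 0.05 (limma adjusted p = 0.14), from 0.03 to 0.07 when single libraries were left out. The call for both compounds against DMSO was lost without DMSO replicate 1 (0.07, limma adjusted p = 0.0852), DMSO replicate 3 (0.07, 0.0796), replicate 1 of both compounds (0.05, 0.103), or replicate 3 of both compounds (0.07, 0.0558), and also with median-ratio scaling (0.05, 0.0983), voom on recovered reads (0.05, 0.0517), or no trend (0.07, 0.0781).

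IRF8, a relative of IRF4 that also acts in myeloid and B cells, was present far below *Irf4*. *Irf8* (ENSMUSG00000041515, chromosome 8, 120736358 to 120756694, plus strand) had 12.2, 11.2, and 11.8 FPKM in DMSO, 11.9, 12.1, and 12.1 in EpA, 12.1, 13.7, and 12.5 in fatostatin, and 13.8, 13.4, and 14.3 in both. EpA and DMSO overlapped (log2 difference 0.04, 95% CI -0.06 to 0.14, limma adjusted p = 0.597), so that a change of *Irf8* by EpA was not detected, and the libraries with both compounds lay above those of DMSO and EpA. *Irf8* was higher with both compounds than with DMSO by 0.24 on the log2 scale (limma adjusted p = 0.00196) and than with EpA by 0.20 (limma adjusted p = 0.0128; 0.17 and 0.0512 without replicate 3 of both compounds). Fatostatin against DMSO gave 0.12 (limma adjusted p = 0.106), from 0.07 to 0.16 when single libraries were left out. EpA added to fatostatin gave 0.11 (limma adjusted p = 0.0904), from 0.07 to 0.16, and passed without fatostatin replicate 2 (0.16, limma adjusted p = 0.0145). The summed B cell markers were 6.21 to 8.05 FPKM in DMSO and 6.47 to 7.07 in both, and the summed myeloid markers 2.79 to 3.20 and 3.62 to 4.57. The summed dendritic cell markers were 0.639 to 0.694 FPKM in DMSO and 0.650 to 0.737 in both. Of these, the mean of *Zbtb46* was higher with both compounds (0.0595 to 0.179) and that of *Xcr1* lower (0.195 to 0.0629). The part of these markers in the *Irf8* difference was not tested.

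BATF and BATF3 are small AP-1 family proteins that pair with JUN proteins and act together with IRF4 and IRF8. The pair moved in opposite directions with EpA. *Batf* (ENSMUSG00000034266, chromosome 12, 85686669 to 85709087, plus strand) had 77.2, 74.3, and 74.9 FPKM in DMSO, 93.1, 96.7, and 96.1 in EpA, 69.7, 74.1, and 70.5 in fatostatin, and 86.6, 89.5, and 90.2 in both. The 4 groups were ordered fatostatin, DMSO, both, and EpA with no overlap, although the top of fatostatin and the bottom of DMSO were close. EpA raised *Batf* by 0.34 on the log2 scale (SE 0.0272, limma adjusted p = 5.2e-06) without fatostatin and by 0.31 (limma adjusted p = 7.31e-06) with it. Fatostatin added to EpA lowered *Batf* by 6.89% (log2 difference -0.10, limma adjusted p = 0.0244), whereas fatostatin against DMSO gave -0.08 (limma adjusted p = 0.0754). These smaller differences changed sides of the threshold with single libraries. The first lost its call without EpA replicate 2 (-0.09, limma adjusted p = 0.0856), EpA replicate 3 (-0.10, 0.0803), or replicate 1 of both compounds (-0.09, 0.0888), and with no trend (-0.10, 0.0646). The second gained one without fatostatin replicate 2 (-0.11, 0.0253).

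*Batf3* (ENSMUSG00000026630, chromosome 1, 191097847 to 191108945, plus strand) had 38.5, 40.9, and 39.0 FPKM in DMSO, 33.9, 36.0, and 34.5 in EpA, 39.2, 41.4, and 40.9 in fatostatin, and 34.1, 38.2, and 39.8 in both. EpA lay below DMSO and fatostatin in every library, and the 3 libraries with both compounds spread across the gap. EpA lowered *Batf3* by 11.8% (log2 difference -0.18, SE 0.0499, limma adjusted p = 0.0195), a call lost without DMSO replicate 2 (-0.15, limma adjusted p = 0.0739), EpA replicate 1 (-0.16, 0.0699), or EpA replicate 3 (-0.17, 0.0568). With fatostatin present, EpA gave -0.12 (limma adjusted p = 0.098), which ran from -0.17 to -0.05 when single libraries were left out and passed without replicate 3 of both compounds (-0.17, 0.0298), with voom on recovered reads (-0.13, 0.0297), and with the replicate block (-0.12, 0.0339). Fatostatin added to EpA gave 0.10 (limma adjusted p = 0.224), which ran from 0.05, without replicate 3 of both compounds, to 0.16, and passed without replicate 1 (0.16, 0.0171). Fatostatin against DMSO gave 0.04 (limma adjusted p = 0.704), from 0.02 to 0.06 when single libraries were left out. Both compounds against DMSO gave -0.08 (limma adjusted p = 0.234), from -0.13 without replicate 3 of both compounds to -0.02 without replicate 1.

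BHLHE40 is a basic helix-loop-helix repressor that T cells induce on activation and that limits *Il10*. Its gene gave the clearest pattern of the 10. *Bhlhe40* (ENSMUSG00000030103, chromosome 6, 108660629 to 108666925, plus strand) had 27.2, 26.8, and 27.7 FPKM in DMSO, 43.1, 43.3, and 45.0 in EpA, 31.6, 31.8, and 31.7 in fatostatin, and 54.8, 56.2, and 54.1 in both. The groups were ordered DMSO, fatostatin, EpA, and both, with no overlap between any pair. EpA raised *Bhlhe40* by 60.7% (log2 difference 0.68, SE 0.0225, limma adjusted p = 7.22e-09), and 5.02% of the tested genes had a larger absolute log2 difference. Fatostatin raised it by 16.2% (log2 difference 0.22, limma adjusted p = 7.05e-05), and both compounds brought it to 2.02-fold of the DMSO level (log2 difference 1.01, limma adjusted p = 9.44e-11). The EpA effect was 0.80 with fatostatin present, and its difference from the effect without fatostatin was 0.11 (95% CI 0.04 to 0.18), with a limma p of 0.00438 before and 0.365 after adjustment. *Bhlhe40* shares 118 of its 4705 exon bases with the antisense gene 0610040F04Rik, which had 0.0330 to 0.136 FPKM, and as the strand setting of the counting is not given in the sources used here, these reads cannot be told apart.

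ETV5 is an ETS-family factor that promotes *Il9* alongside PU.1. *Etv5* (ENSMUSG00000013089, chromosome 16, 22381309 to 22439719, minus strand) had 0.479, 0.644, and 0.566 FPKM in DMSO, 0.821, 0.807, and 0.829 in EpA, 0.681, 0.807, and 0.836 in fatostatin, and 1.67, 1.35, and 1.36 in both. These levels rest on 72 to 108 reads per DMSO library and 228 to 292 per library with both compounds. EpA and fatostatin overlapped with each other, DMSO lay below them, and the libraries with both compounds lay above. EpA raised *Etv5* by 0.48 on the log2 scale (SE 0.124, limma adjusted p = 0.014; 0.38 and 0.0548 without DMSO replicate 1), and fatostatin gave 0.40 (limma adjusted p = 0.0527). The latter passed without DMSO replicate 2 (0.49, limma adjusted p = 0.0376), fatostatin replicate 1 (0.48, 0.0452), or replicate 1 of both compounds (0.40, 0.0431), with no trend (0.40, 0.0421), and with a pseudocount of 0.01 (0.46, 0.0473). EpA on top of fatostatin gave 0.83 (limma adjusted p = 0.000421), fatostatin on top of EpA 0.76 (limma adjusted p = 0.00168), and both compounds against DMSO 1.23 (SE 0.124, limma adjusted p = 1.46e-05), or 2.35-fold on this scale. A pseudocount of 1 in place of 0.1 shrank these differences and kept the calls, with 0.22 for EpA against DMSO, 0.47 and 0.43 for EpA and fatostatin on top of the other, and 0.65 for both against DMSO. The difference between the EpA effects with and without fatostatin was 0.35, with an interval from -0.03 to 0.74 (limma adjusted p = 0.674).

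GATA3, which Th2 and Th9 cells share, changed by small amounts in each comparison. *Gata3* (ENSMUSG00000015619, chromosome 2, 9857078 to 9890034, minus strand) had 50.7, 47.8, and 52.6 FPKM in DMSO, 46.8, 45.0, and 47.4 in EpA, 53.7, 57.6, and 56.2 in fatostatin, and 49.3, 51.7, and 52.4 in both. EpA was lowest and fatostatin highest, and both compounds overlapped with DMSO (log2 difference 0.02, 95% CI -0.06 to 0.11, limma adjusted p = 0.702). EpA lowered it by 7.83% (log2 difference -0.12, limma adjusted p = 0.044) and fatostatin raised it by 10.8% (0.15, limma adjusted p = 0.0252). With the other compound present, EpA gave -0.13 (limma adjusted p = 0.0297) and fatostatin 0.14 (limma adjusted p = 0.0313). EpA against fatostatin, the widest of these gaps, gave -0.26 (limma adjusted p = 0.000263).

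The calls of *Gata3* were lost most often under the alternatives run. That of EpA against DMSO was lost in 11 of 23 alternatives, among them without any one of the 3 EpA libraries (limma adjusted p = 0.0806, 0.146, and 0.0556 without replicates 1, 2, and 3), DMSO replicate 1 (0.109), or DMSO replicate 3 (0.162), and, in groups outside this comparison, without fatostatin replicate 3 (0.0573) or replicates 2 (0.0561) or 3 (0.0503) of both compounds. It was also lost with the 2 groups fitted alone (limma adjusted p = 0.0622), no minimum (0.0719), or no trend (0.082). That of fatostatin against DMSO was lost without DMSO replicate 1 (limma adjusted p = 0.0598) or 2 (0.0855) or fatostatin replicate 2 (0.092) or 3 (0.0729), with the 2 groups alone (0.0628), or with no trend (0.0581). That of fatostatin added to EpA was lost without EpA replicate 1 (limma adjusted p = 0.0657) or 2 (0.11) or replicate 2 (0.0882) or 3 (0.101) of both compounds, and with no minimum (0.0524), no trend (0.0665), or median-ratio scaling (0.0613). That of EpA added to fatostatin was lost without fatostatin replicate 2 (limma adjusted p = 0.108) or 3 (0.0787) or replicate 1 (0.104) or 2 (0.0533) of both compounds, and with no minimum (0.0502) or no trend (0.0597). *Gata3* also shares 155 of 3978 exon bases with the antisense gene Gm13256 and 77 with 9230102O04Rik.

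c-Maf is an activator of *Il4*, *Il10*, and *Il21*. *Maf* (ENSMUSG00000055435, chromosome 8, 115682942 to 115707794, minus strand) had 16.6, 16.9, and 16.6 FPKM in DMSO, 15.4, 16.4, and 15.7 in EpA, 12.1, 11.7, and 11.8 in fatostatin, and 11.4, 11.8, and 11.6 in both. The 6 libraries with fatostatin lay below the 6 without it, and within those the groups differed little. Fatostatin lowered *Maf* by 28.9% (log2 difference -0.49, SE 0.0278, limma adjusted p = 5.12e-07), a size that 7.49% of the tested genes exceeded, and by 26.7% in the presence of EpA (-0.45, limma adjusted p = 1.17e-06). EpA gave -0.08 without fatostatin (limma adjusted p = 0.0527) and -0.04 with it (95% CI -0.10 to 0.02, limma adjusted p = 0.367). The former passed without EpA replicate 2 (-0.10, limma adjusted p = 0.0231), with median-ratio scaling (-0.08, 0.045), with voom on recovered reads (-0.08, 0.0297), and with a minimum mean of 1 FPKM (-0.08, 0.0477). *Maf* shares 440 of its 8241 exon bases with the antisense gene Gm15655, and counting without strand would not separate them.

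Blimp-1, the product of *Prdm1*, is a repressor of differentiated lymphocytes and the member that fell most with EpA. *Prdm1* (ENSMUSG00000038151, chromosome 10, 44437177 to 44528501, minus strand) had 1.13, 0.956, and 1.09 FPKM in DMSO, 0.599, 0.562, and 0.682 in EpA, 1.05, 1.01, and 0.907 in fatostatin, and 0.645, 0.535, and 0.560 in both. The 6 libraries with EpA lay below the 6 without it. EpA lowered *Prdm1* by 42.0% (log2 difference -0.70, SE 0.112, limma adjusted p = 0.000782), a size that 4.82% of the tested genes exceeded, and by 41.5% with fatostatin present (-0.68, limma adjusted p = 0.000817). Fatostatin gave -0.09 against DMSO (95% CI -0.33 to 0.16, limma adjusted p = 0.69) and -0.07 against EpA (95% CI -0.32 to 0.17, limma adjusted p = 0.731). With a pseudocount of 1, the EpA effects were -0.35 without and -0.33 with fatostatin and that of both compounds against DMSO -0.38, in place of -0.77, with all calls kept. The counts behind these levels were 218 to 264 reads per DMSO library and 125 to 161 per EpA library. *Cd8a*, like *Prdm1*, was lower with EpA both without and with fatostatin (log2 difference -1.46 with fatostatin present, limma adjusted p = 2.57e-06). The summed NK and CD8+ T cell markers were lower in all EpA libraries than in DMSO, as given above. Of these 5 markers, however, 3 had a higher mean with EpA, and *Cd8b1* had 7.6 FPKM in DMSO and 7.47 in EpA. With fatostatin present, the sums overlapped (8.63 to 10.2 FPKM in fatostatin and 7.04 to 8.67 in both). The part of these markers in the *Prdm1* difference was not tested.

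*Spi1* (ENSMUSG00000002111, chromosome 2, 91082390 to 91115756, plus strand) averaged less than 0.1 FPKM and was not part of the main fit. It had 0, 4, and 2 reads in DMSO, 6, 18, and 11 in EpA, 4, 8, and 2 in fatostatin, and 8, 10, and 8 in both, which are levels of 0 to 0.168 FPKM. As both mates of a fragment may be counted, there may be fewer fragments than reads. The EpA values did not overlap with DMSO and overlapped with the other groups. In a fit with no minimum, EpA against DMSO gave a log2 difference of 0.79 (limma adjusted p = 0.0254) on the log2(FPKM + 0.1) scale, and both compounds against DMSO gave 0.60 (limma adjusted p = 0.0662). The others were 0.26 for fatostatin against DMSO (limma adjusted p = 0.559), -0.19 for both against EpA (0.689), 0.34 for both against fatostatin (0.35), and 0.52 for EpA against fatostatin (0.107). An exact two-sided permutation test of the FPKM gave p = 0.1 for EpA and for both compounds against DMSO, the smallest that 3 against 3 libraries allow. PU.1 is also a defining factor of myeloid and B cells. Of the 14 myeloid markers, 6 had a higher mean with EpA than with DMSO and 8 a lower one. *Lyz2* had means of 0.0371, 0.186, 0.2005, and 0.224 FPKM in DMSO, EpA, fatostatin, and both, and *Cd14* 0.0105, 0.0472, 0.0367, and 0.148, lowest in DMSO as for *Spi1*, whereas *Csf1r* had 0.0166, 0.0113, 0.0141, and 0.0238. The summed myeloid markers, of which *Cd68* was the most abundant, were 2.79 to 3.20 FPKM in DMSO and 2.27 to 3.93 in EpA. The summed mast cell and granulocyte markers were higher in all EpA libraries than in DMSO, as given above. The part of these markers in the *Spi1* difference was not tested.

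The effects of each compound could be compared in separate sets of libraries, since EpA against DMSO and both compounds against fatostatin share none. For EpA, 8 of the 9 tested members had the same sign in both, the exception being *Irf4*, and 76.6% of all tested genes did. For fatostatin, all 9 tested members had the same sign without and with EpA, as did 71.0% of all tested genes. No member passed the test of the difference between the EpA effects (limma), which 6 genes or 0.0437% of all tested genes passed, and 2 of 9 members, *Irf4* and *Bhlhe40*, had an unadjusted p below 0.05, against 7.89% of all tested genes. How many of all genes passed depended on the scaling and model. As deposited, 5 were higher and 1 lower, and 0 and 2 with each library rescaled to the same FPKM sum. The numbers were 0 and 0 after scaling by the median ratio and 14 and 7 with voom on recovered reads. The intervals of the difference between the EpA effects were narrow for the abundant factors, such as -0.11 to 0.06 for *Batf* and -0.04 to 0.13 for *Maf*, and wide for *Prdm1* (-0.33 to 0.36).

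**Figure D3:**
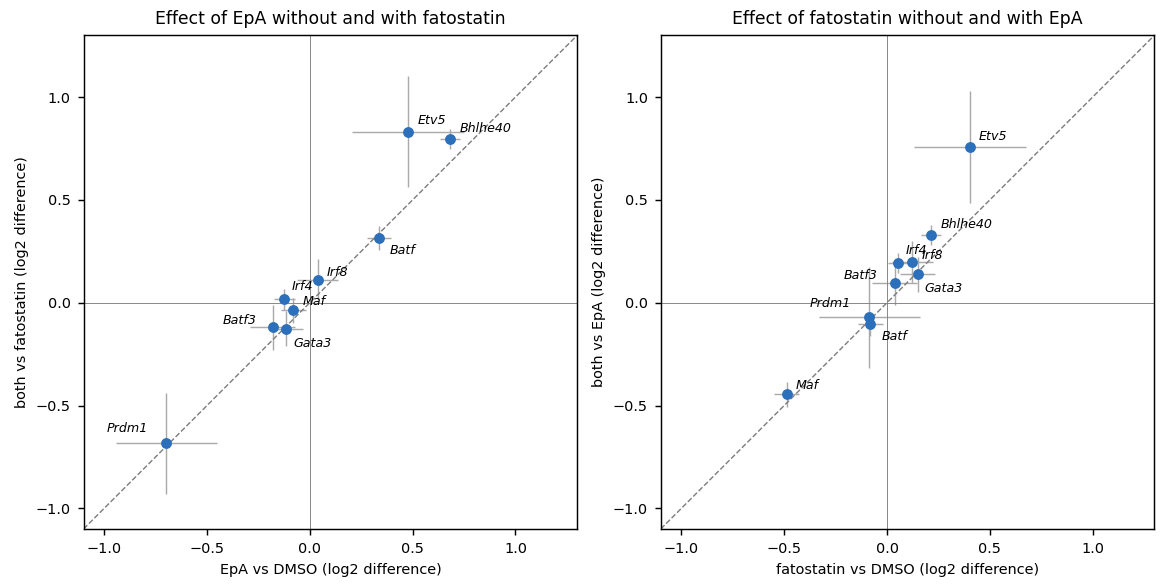
Log2 difference (log2(FPKM + 0.1) scale) of each of the 9 tested factors when a compound was added to cultures without (x axis) and with (y axis) the other compound; bars are 95% intervals of limma and the dashed line marks equal effects. *Prdm1* and *Batf* lie near the line for EpA and *Maf* near it for fatostatin, whereas *Etv5*, *Bhlhe40*, and *Irf4* are among those above it in both panels, with tests of the difference that did not pass adjustment.

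With both compounds together, *Irf4*, *Batf*, *Bhlhe40*, *Etv5*, and *Irf8* were higher than with DMSO and *Maf* and *Prdm1* lower, 7 of 9 members against 35.5% of all tested genes. Of these, *Bhlhe40*, *Etv5*, and *Prdm1* reached 1.5-fold, as did 5.64% of all tested genes. *Bhlhe40* and *Etv5* were highest in this group, *Prdm1* and *Maf* lowest, and *Batf* lay between its DMSO and EpA levels. EpA directly against fatostatin separated 7 of 9 members, against 35.4% of all tested genes: *Batf*, *Bhlhe40*, and *Maf* were higher with EpA and *Irf4*, *Batf3*, *Gata3*, and *Prdm1* lower. *Etv5* (log2 difference 0.08, limma adjusted p = 0.684) and *Irf8* (-0.09, limma adjusted p = 0.18) did not pass. Leaving out single libraries gave -0.12 to -0.03 for *Irf8*.

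The promoters are shown for *Batf*, *Etv5*, and *Prdm1*, the members with a promoter entry that moved by the most with EpA, so that a reader can see the sequence next to the changing transcripts. Of the 10 members, 7 had an entry in the RefSeq promoter table of GRCm38.p6, with 9 promoters in all (*Spi1*, *Bhlhe40*, and *Maf* had none). The 250 bases before the start are printed 5′ to 3′ on the strand of the gene, with motif letters in capitals, for *Batf* at chr12:85686470-85686719 (plus strand), for the first start of *Etv5* at chr16:22439571-22439820 (minus strand), and for *Prdm1* at chr10:44458749-44458998 (minus strand).
Batf: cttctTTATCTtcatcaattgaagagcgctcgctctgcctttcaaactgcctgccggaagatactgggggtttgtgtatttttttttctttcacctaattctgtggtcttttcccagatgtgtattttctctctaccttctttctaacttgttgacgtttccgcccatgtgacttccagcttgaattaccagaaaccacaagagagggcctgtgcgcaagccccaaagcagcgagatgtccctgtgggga
Etv5: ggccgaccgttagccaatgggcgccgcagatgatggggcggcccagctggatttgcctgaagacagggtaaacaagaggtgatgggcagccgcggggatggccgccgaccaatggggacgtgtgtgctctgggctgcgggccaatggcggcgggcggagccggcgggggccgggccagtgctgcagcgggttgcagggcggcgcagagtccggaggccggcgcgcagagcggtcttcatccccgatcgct
Prdm1: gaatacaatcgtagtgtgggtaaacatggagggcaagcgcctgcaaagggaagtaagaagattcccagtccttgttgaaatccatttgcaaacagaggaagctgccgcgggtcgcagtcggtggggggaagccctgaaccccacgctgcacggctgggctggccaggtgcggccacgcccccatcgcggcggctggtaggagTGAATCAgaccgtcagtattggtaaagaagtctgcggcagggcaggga

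Letters of 6 motifs were searched on both strands from 250 bases before to 50 after each start: AP-1 (TGANTCA), an IRF pair (GAAANNGAA), a PU box (GAGGAAGT), the GATA-factor letters AGATAA, an E box (CACGTG), and a sterol response element (TCACNCCAC). The *Prdm1* promoter held the AP-1 letters TGAATCA at positions -48 to -42 from the start, as 7.81% of the 32851 promoters in the table held an AP-1 match. The *Batf* promoter held the GATA letters on the other strand, read as TTATCT at -245 to -240 (11.2% of promoters), and the *Batf3* promoter an E box at -247 to -242 (7.15%). The IRF, PU box, and sterol response letters, held by 8.56%, 3.2%, and 1.24% of promoters, were in none of the 9 member promoters, and those of *Irf4*, *Gata3*, *Etv5*, and *Irf8* held none of the 6. The GC content of the printed stretches was 46.4% for *Batf*, 71.2% for *Etv5*, and 59.2% for *Prdm1*.

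The genes whose pattern over the 12 libraries was most like that of a member were found by Pearson's r on log2(FPKM + 0.1) among the 10297 genes that averaged 1 FPKM or more, and they are given as a description. For *Bhlhe40* this was *Tgm2* (r = 0.996), which encodes transglutaminase 2 and had means of 14.5, 25.3, 17.9, and 34.3 FPKM in DMSO, EpA, fatostatin, and both. For *Maf* it was *Scd1* (r = 0.991), which encodes stearoyl-CoA desaturase and had means of 243, 226, 172, and 171 FPKM in the same order. For *Batf* it was *Gcsh* (r = 0.990), a gene of the glycine cleavage system, and for *Gata3* *Man2b1* (r = 0.960), a lysosomal mannosidase. The values were lower for *Irf4* (*Laptm4b*, r = 0.946), *Irf8* (Gm19710, r = 0.940), and *Batf3* (AU020206, r = 0.904). The points share libraries and group means, and *Etv5*, *Prdm1*, and *Spi1* were below the minimum.

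The signals that induce these factors were followed with 24 genes of the IL-4, TGF-β, IL-2, OX40, NF-κB, NFAT, Notch, and related pathways. With EpA, 8 rose and 7 fell, where of all tested genes 14.3% were higher and 13.1% lower (median log2 difference -0.04, against 0.00230 over all tested genes). With fatostatin, 10 rose and 3 fell, where of all tested genes 7.69% were higher and 6.31% lower (median 0.06, against 0.00535). The noncanonical NF-κB genes *Nfkb2* and *Relb*, which act below OX40 in Th9 cells, rose with each compound. *Nfkb2* had means of 25.4, 34.8, 31.2, and 46.1 FPKM in DMSO, EpA, fatostatin, and both (limma adjusted p = 1.24e-06 for EpA and 5.68e-05 for fatostatin), and *Relb* 3.15, 4.03, 4.21, and 5.75. *Hif1a* rose with EpA, from 92.8 to 122 FPKM, and *Il4ra*, the IL-4 receptor α chain, fell from 118 to 93.0 FPKM (limma adjusted p = 1.13e-07). *Smad3*, a TGF-β signal transducer, rose with fatostatin from 6.58 to 9.59 FPKM, and *Foxo1* fell from 49.4 to 43.5.

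Among 8 partner factors, which bind with the members or at the same elements, 2 rose and 4 fell with EpA (median -0.13; all tested genes: 14.3% higher and 13.1% lower) and 0 rose and 3 fell with fatostatin (median -0.00382; all tested genes: 7.69% higher and 6.31% lower). *Junb*, an AP-1 partner of BATF proteins, rose with EpA from 142 to 191 FPKM (limma adjusted p = 3.96e-06) and fell with fatostatin to 126 (limma adjusted p = 0.00553), the same order of groups as *Batf*. *Ikzf3* (Aiolos) fell from 25.4 FPKM to 17.5 with EpA and 19.6 with fatostatin, and had 12.4 with both. *Zfpm1* (FOG-1, a partner that restrains GATA3) fell with EpA from 11.3 to 8.18 FPKM, and *Ikzf1* (Ikaros) from 79.3 to 67.8. *Runx3* fell with fatostatin from 22.8 to 19.0 FPKM.

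Of 28 relatives from the same protein families, 22 were tested, and 6 rose and 5 fell with EpA (median 0.02; all tested genes: 14.3% higher and 13.1% lower). With fatostatin 3 rose and 1 fell (median 0.07), 4 of 22 and thus near the 14.0% of all tested genes. *Maff*, a small MAF protein, rose with EpA from 1.96 to 2.86 FPKM, *Etv6* from 21.3 to 27.5 (and with fatostatin to 23.1), and *Irf5* from 3.27 to 4.17. *Irf1* fell with EpA from 13.8 to 11.1 FPKM and rose with fatostatin to 15.7, as *Gata3* did. *Ets2* rose with fatostatin from 5.26 to 6.52 FPKM, and *Ets1* fell from 96.8 to 91.8.

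Among 12 target genes of these factors, of which 11 were tested, 5 rose and 1 fell with EpA (median 0.26, against 0.00230 over all tested genes; 14.3% of these were higher and 13.1% lower). With fatostatin 4 rose and 2 fell (median 0.15, against 0.00535; all tested genes: 7.69% higher and 6.31% lower). *Il9* had means of 54.6, 640.0, 66.5, and 821 FPKM in DMSO, EpA, fatostatin, and both, the order of groups of *Bhlhe40*, over a much wider range. *Il21* rose with EpA from 1.27 to 3.28 FPKM, *Ccl17* from 0.991 to 2.59, and *Il13* from 8.82 to 15.9. *Il10*, a gene that c-Maf promotes, had 110.1, 136, 53.7, and 71.2 FPKM in DMSO, EpA, fatostatin, and both, so that it fell with fatostatin (log2 difference -1.04, limma adjusted p = 2.89e-10), as *Maf* did. With EpA it rose (0.31, limma adjusted p = 3.62e-06), while *Bhlhe40*, known as its repressor, rose and *Prdm1*, known to promote it, fell. *Il5* rose with fatostatin from 0.631 to 1.05 FPKM, *Ccl17* to 1.54, and *Il13* to 11.1.

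Of 9 factors of rival lineages, 1 rose and 7 fell with EpA (median -0.46; all tested genes: 14.3% higher and 13.1% lower), and 2 rose and 2 fell with fatostatin (median 0.02; all tested genes: 7.69% higher and 6.31% lower). *Id3*, which restrains Th9 differentiation, fell from 9.39 FPKM to 4.67 with EpA and 6.98 with fatostatin, and had 3.47 with both. *Foxp3*, of regulatory T cells, fell with EpA from 1.87 to 1.20 FPKM, and *Eomes* fell from 0.220 to 0.0711. *Tbx21*, of Th1 cells, rose with fatostatin from 3.91 to 4.95 FPKM, *Tcf7* from 97.8 to 108, and *Id2* fell from 50.1 to 44.6. *Bcl6* stands in this list and in that of the target genes.

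**Figure D4:**
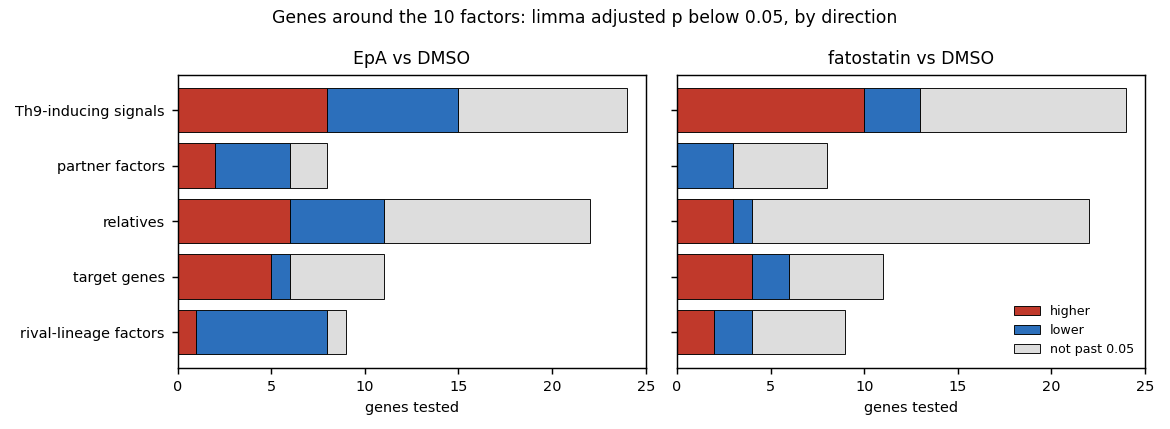
Number of tested genes (x axes) in 5 lists around the 10 factors that were higher, lower, or not past a limma adjusted p of 0.05 with EpA (left) and fatostatin (right), each against DMSO. Called genes were 15 of 24, 6 of 8, 11 of 22, 6 of 11, and 8 of 9 with EpA, from top to bottom, against 27.4% of all tested genes, and 13, 3, 4, 6, and 4 of the same numbers with fatostatin, against 14.0%.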

How the data were processed

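RNA-seq of Th9 cells was measured in 12 libraries, 4 groups of 3. Per the methods of the study and the labels, the authors used Trim Galore, HISAT2 with the GRCm38 genome, and featureCounts, and the deposited values are FPKM, counts scaled by gene length and library size. The annotation release and the use of strand are not given in the sources used here. The authors' comparisons used DESeq2 on counts, which were not used here. The 32352 lines hold 32051 genes, and the 301 repeats of a gene under another symbol carried identical values. No column was without a sample. Exon lengths from GENCODE (GRCm38) covered 99.9% of the genes, and dividing by the FPKM of 1 read gave whole reads (within 0.05) for 98.4% to 98.6% of the values of a library. Sequencing was paired-end, and in each library more genes had 2 recovered reads (1032 to 1138) than 1 (447 to 548). Both mates of a fragment may thus be counted, so the read numbers, and voom on them, may overstate the number of fragments.

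The 13733 genes that averaged 0.1 FPKM or more in the 12 libraries entered limma 3.58.1 in R 4.3.3 on log2(FPKM + 0.1), in 1 fit with a mean for each group and an intensity trend. The p-values are two-sided and adjusted by the Benjamini-Hochberg method over all tested genes. Fold changes on this scale understate those of low genes. *Spi1* was below the minimum and was compared by reads, by an exact permutation test in scipy, and by a fit with no minimum. The script was tested on simulated data. The members and the gene lists were chosen with earlier results of these data known. By rule all 10 members are described in each comparison, and from each list up to 4 genes per compound with the largest change past an adjusted p of 0.05 against DMSO, 1 of which is not reported here; *Tgm2* and the other most similar genes are the first by Pearson's r. Alternatives changed the pseudocount, minimum, scaling, fold threshold, groups, empirical Bayes step, replicate block, count model (voom of limma on recovered reads), and libraries.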

Additional observations from a re-analysis of the deposited data

How the results depend on the processing

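Of 1426 values of single members under alternatives, 1350 kept their direction and side of the threshold, 46 lost a call, 15 gained one, and 15 changed sign. Alternatives such as no trend, or leaving out a library of a group outside the comparison, keep the difference itself. Its direction could not change in these. The sign changes were in differences near 0: leaving out a library in turn gave -0.00207 to 0.0394 for *Irf4* (both against fatostatin), -0.0145 to 0.0538 for *Gata3* (both against DMSO), -0.00404 to 0.127 for *Etv5* (EpA against fatostatin), and, for the difference between the EpA effects, -0.0397 to 0.00419 for *Batf*, -0.0408 to 0.0275 for *Gata3*, and -0.0533 to 0.0812 for *Prdm1*, which was -0.00741 with voom on recovered reads. With a fold change of at least 1.5, the members called numbered 2 (EpA against DMSO), 0 (fatostatin against DMSO), 1 (both against EpA), 3 (both against fatostatin), 3 (both against DMSO), and 1 (EpA against fatostatin), since the threshold is stricter, and with a minimum mean of 1 FPKM, which leaves out *Etv5* and *Prdm1*, 3 (both against fatostatin). No pairing of libraries by replicate number was detected, which does not show that the cultures were unpaired. Correlations of deviations from the group means were -0.0472 to 0.0744 over 18 pairs of the same number and -0.0859 to 0.0492 over 36 others. A fit with the replicate block called 7 members for EpA against DMSO and 3 for fatostatin against DMSO. It changed 1 of 63 member values, *Batf3* with both against fatostatin (-0.12, limma adjusted p = 0.0339). Depth limits *Spi1* (0 to 18 reads per library). The scaling moved the median of all genes by less than 0.1 on the log2 scale. A pseudocount of 1 moved called differences of *Etv5* and *Prdm1* by over 1.5 times, with calls kept. The cause of the lost calls was not tested.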
